A study of Mus musculus with 4 samples.

Results

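The paired-box genes *Pax2* and *Pax8*, the homeobox genes *Six2* and *Six4*, the co-activator genes *Eya1*, *Eya2* and *Eya4* and the zinc-finger genes *Gata2* and *Gata3* were followed in cochlear ducts of mouse embryos with and without *Tbx2* in the prosensory domain. These 9 genes were taken by their symbols from the 29924 gene names of the array, on which 13 of 39429 probes represent them, each with 4 spots. Of the 9 genes, 8 were bright enough to be among the 21042 genes tested, and *Pax8* was not. Each of the 4 arrays compared 1 pool of *Sox2-Tbx2LOF* ducts with 1 pool of control ducts in 2 dyes, with female pools on arrays 1 and 2 and male pools on arrays 3 and 4. Mutant RNA carried Cy5 on arrays 1 and 3 and Cy3 on arrays 2 and 4.

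All pools came from NMRI embryos at E14.5 whose dams had received 4 mg of tamoxifen orally at E12.5, so that controls and mutants share the treatment. *Sox2-Tbx2LOF* embryos carry Sox2(creERT2), a tamoxifen-dependent Cre recombinase placed in the *Sox2* gene, and Tbx2(fl/fl), a *Tbx2* gene with *loxP* sites on both alleles. Controls are labelled Tbx2(fl/n.d.), with the second allele not determined, and are cre-negative according to the methods. They therefore lack the insertion at *Sox2*, whose effect cannot be told apart from that of the loss of *Tbx2*. The methods describe independent, sex-sorted pools of whole ducts from which the spiral ganglion had been removed. Recombination takes place in cells that express *Sox2* while tamoxifen acts, whereas the RNA comes from the entire duct.

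The proteins of these gene families act together in the development of the ear from its earliest stages. PAX2 and PAX8 are paired-domain transcription factors of the otic placode. SIX2, SIX4 and their relatives bind DNA and recruit EYA proteins, which act as co-activators and also carry phosphatase activity. GATA3 is a zinc-finger factor needed for growth of the cochlear duct and for the prosensory domain, and its partial loss causes deafness in humans. Mutations of *EYA1* or *EYA4* also cause hereditary hearing loss. As TBX2 is a T-box factor that mostly represses its targets, the arrays allow the question of whether genes of this network change when it is removed from prosensory progenitors.

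Marker signals and the labels were checked first. All 8 markers of otic epithelium were well above background in all 8 pools. So were 20174 of the 21042 genes tested, among them the markers of other tissues given below. Detection of these markers therefore does not identify the tissue. *Tbx2* itself differed by −0.116 ± 0.098 on the log2 scale between mutant and control (SD, n = 4 arrays) and was lower on 4 of 4 arrays, with adjusted p = 0.124. Whether its probe lies within the deleted part was not determined. By immunofluorescence at E14.5, the paper reports TBX2 protein absent from recombined cells of the organ of Corti, whereas the array value is RNA of entire ducts. The probe of *Esr1*, which encodes the receptor that provides part of CreERT2, was well above background in 4 of 4 mutant pools and in 0 of 4 control pools. Each channel had a median spot intensity of 263 to 292 in Cy3 and of 496 to 563 in Cy5, and 0 gene spots were saturated. With 4 arrays, the precision of each value is limited. Levels are given as normalized log2 signal of a probe, which can be compared between pools but not between probes, and differences as log2 ratios, mutant over control throughout.

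Of the 8 genes tested, *Gata2* and *Gata3* rose in the mutant and 0 fell. The 2 called genes are 25% of those tested, against 5.18% of all 21042 genes at an adjusted p below 0.05 (limma, Benjamini-Hochberg), or 2.26% for higher and 2.92% for lower levels. At an unadjusted p below 0.05 the same count of 2 higher and 0 lower was obtained. Of all 21042 genes, 4258 had such a p, 1991 of them with higher levels in the mutant. With 8 genes, a count of 2 says little against these shares. None of the 8 reached a fold change of 1.5 together with that p, which 0.442% of all genes did. The median log2 ratio was 0.063 over the 8 genes and 0.0024 over all genes, and 7 of 8 ratios were above 0.

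**Figure D1:**
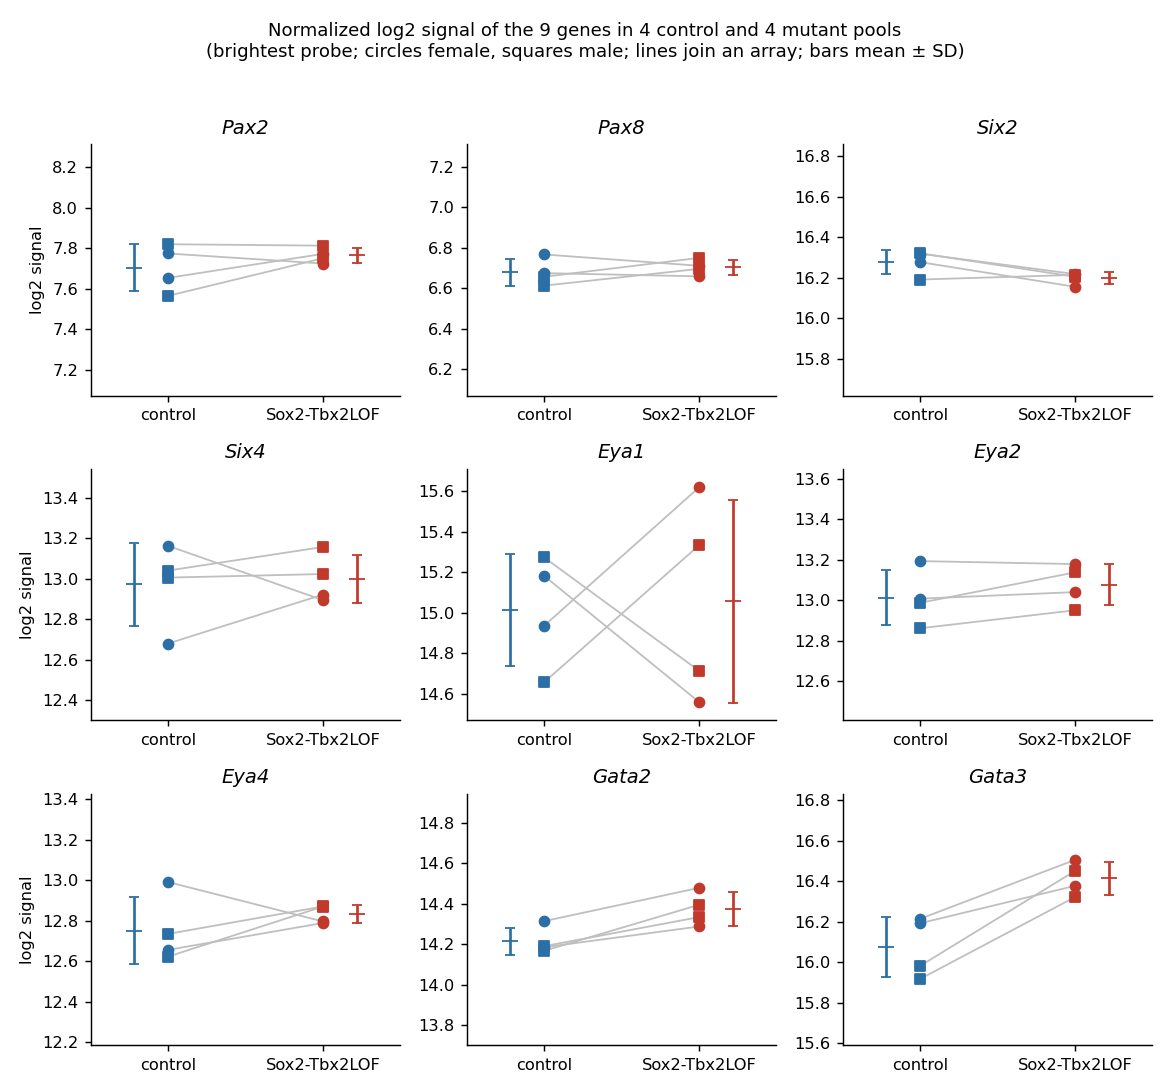
Normalized log2 signal (vertical axis) of the brightest probe of each of the 9 genes in 4 control (blue) and 4 *Sox2-Tbx2LOF* pools (red), with circles for female and squares for male pools, grey lines joining the pools of an array and bars giving mean ± SD. The groups of *Gata3* lie apart, at 15.92 to 16.22 and 16.32 to 16.51 (as do those of 4.27% of all genes tested), those of the other 8 genes overlap, and the lines of *Eya1* cross with the dye.

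*Gata3* had the largest change of the 8 genes. Its probe lies on chr2:9779551-9779610 (mm9, minus strand). The level was 16.51, 16.38, 16.45 and 16.32 in the mutant pools on arrays 1 to 4, and 16.22, 16.19, 15.98 and 15.92 in the control pools on the same arrays. Every mutant pool exceeded every control pool, which held for none of the other 12 probes. Of the 8 genes tested 1 thus had groups that did not overlap, against 4.27% of all genes, or 1.73% with the mutant higher, and of the 11 tested probes 1, against 4.06% of all probes, or 1.61% with the mutant higher. With 8 genes, a count of 1 says little against such shares. The means were 16.42 ± 0.081 and 16.08 ± 0.149 (SD, n = 4 each). On the separate arrays the log2 ratio was 0.291, 0.185, 0.469 and 0.404. The fitted log2 ratio was 0.337 (SE 0.049), a fold change of 1.26 with a 95% interval from 1.17 to 1.37 and adjusted p = 0.00929. *Gata3* ranked 360 by p among the genes tested. Without array 3, a male array, the ratio was 0.293 and the call was lost (adjusted p = 0.0912). Calls over all genes fell from 1091 to 445 without that array. Without array 1, a female array, the ratio of *Gata3* was 0.382 with adjusted p = 0.0478.

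*Gata2*, a close relative of *Gata3* known best for its part in blood stem cells and endothelium, rose less. Its probe lies on chr6:88156362-88156421 (mm9, plus strand). Mutant pools had levels of 14.29, 14.48, 14.33 and 14.40, and control pools of 14.19, 14.31, 14.19 and 14.17. The mutant pool was the higher one on each array, but the groups overlapped, as the control pool of array 2 was above the mutant pool of array 1. The log2 ratio of 0.102, 0.164, 0.144 and 0.227 on the 4 arrays gave a fitted value of 0.159 (SE 0.035), a fold change of 1.12 with a 95% interval from 1.06 to 1.18 and adjusted p = 0.0429. When all probes were fitted in place of 1 probe a gene, the adjusted p of *Gata2* was 0.0541 and that of *Gata3* 0.0115, where 3.99% of the probes were called. Leaving out any of the 4 arrays ended the call of *Gata2*, with adjusted p from 0.0713 to 0.201 and log2 ratios from 0.144 to 0.175.

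Although the methods describe removal of the spiral ganglion, markers of other tissues were detected, and some of them moved with the genotype. Among 12 neuronal markers 7 were lower and 2 higher in the mutant, with a median log2 ratio of −0.277, and their mean level was 10.56 to 10.69 in mutant and 10.78 to 11.00 in control pools. Of 6 markers of Schwann cell precursors 3 were lower and 1 higher (median −0.338), at 9.89 to 10.01 and 10.20 to 10.38. Among 6 endothelial markers only *Cldn5* rose, by 0.211 on the log2 scale, the median was 0.090, and the mean level was 11.71 to 11.83 in mutant and 11.63 to 11.70 in control pools. None of 5 erythroid markers was called, the median was 0.127, and the mean level was 11.20 to 11.31 and 11.05 to 11.20. All of these markers were well above background in every pool, as were most genes, so their detection does not identify the tissue. Over all 21042 genes 2.26% were called higher and 2.92% lower. The part of any such tissue in the rise of *Gata2* and *Gata3* was not tested. In RNA from whole ducts, more cells that express a gene and more RNA per cell cannot be told apart.

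Of the remaining lists, to be set beside the same shares of all genes, otic epithelium had 1 of 8 markers higher (*Emx2*) and hair cells 1 of 4 (*Myo7a*). In both 0 were lower, and the median log2 ratios were 0.055 and 0.144. According to the paper, hair cells have not yet differentiated at E14.5, so these markers do not identify hair cells here. Periotic mesenchyme had 1 of 10 higher and 1 lower (median 0.062), and none of 7 melanocyte and 6 macrophage markers was called (medians −0.011 and 0.048).

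**Figure D2:**
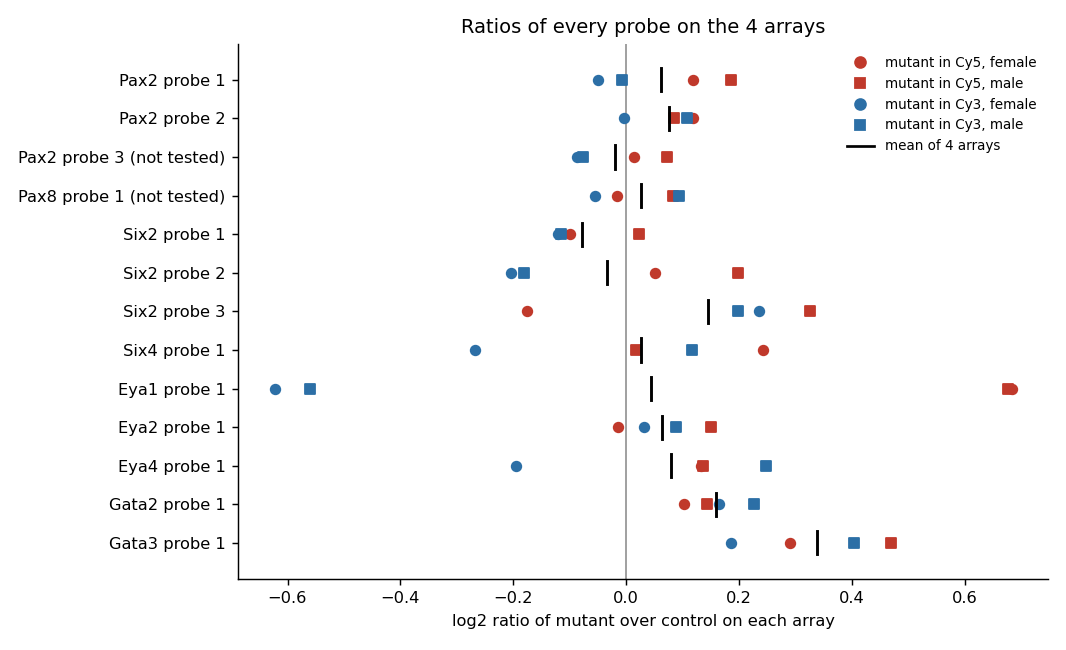
Log2 ratio of mutant over control (horizontal axis) of each of the 13 probes on the 4 arrays, with the mutant labelled in Cy5 (red) or Cy3 (blue), circles for female and squares for male arrays, and a black line for the mean of 4 arrays. The points of *Gata2* and *Gata3* all lie above 0, and those of *Eya1* split by dye, at 0.676 and 0.683 against −0.622 and −0.559.

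For the 2 genes that rose, the 250 bases upstream of the start sites are shown from RefSeq on GRCm38.p6, because the factor removed from the mutant binds DNA. GGTGTG, the core of the T-box motif, is in capitals. *Gata3* has 1 entry, on chr2:9878601-9878850 (minus strand), and *Gata2* has 2, on chr6:88193641-88193890 and chr6:88198414-88198663 (plus strand). All are read 5′ to 3′ along the gene.
Gata3: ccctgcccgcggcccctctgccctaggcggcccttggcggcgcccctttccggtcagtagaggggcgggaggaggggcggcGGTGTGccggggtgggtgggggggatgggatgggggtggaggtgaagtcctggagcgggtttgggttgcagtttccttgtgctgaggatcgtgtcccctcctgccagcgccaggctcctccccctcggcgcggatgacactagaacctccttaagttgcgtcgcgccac
Gata2, first start: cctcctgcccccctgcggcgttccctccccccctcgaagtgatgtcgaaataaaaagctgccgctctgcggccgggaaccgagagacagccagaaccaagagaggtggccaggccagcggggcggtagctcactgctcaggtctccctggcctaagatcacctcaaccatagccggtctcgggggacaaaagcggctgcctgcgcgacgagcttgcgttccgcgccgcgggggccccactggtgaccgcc
Gata2, second start: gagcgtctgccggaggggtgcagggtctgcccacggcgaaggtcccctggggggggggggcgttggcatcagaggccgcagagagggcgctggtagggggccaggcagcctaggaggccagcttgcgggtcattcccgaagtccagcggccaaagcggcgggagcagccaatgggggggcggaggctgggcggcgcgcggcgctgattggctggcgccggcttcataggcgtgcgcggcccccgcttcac

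GGTGTG, read on both strands as GGTGTG or CACACC, occurred in 19% of 32851 promoter windows that span 250 bases before and 50 bases after a start. Of the 12 windows of the genes studied here, which belong to 7 of the 9 genes, 4 held it, and these belonged to *Pax2*, *Gata2* and *Gata3*. The window of *Gata3* had 1 match, within the bases printed. The first window of *Gata2* had 1 match as well, in the bases after the start, and its second window 0. The windows had a GC content of 67.3% for *Gata3* and of 69.3% and 73.7% for *Gata2*. The GATA motif AGATAA, with its reverse TTATCT, occurred in 11.2% of all windows and in 1 of the 12, that of *Six2*, but in none of *Gata2* and *Gata3*. A match of 6 letters is a description of the sequence and not a binding site. *Eya1* and *Eya2* have no entry in the table used.

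The *Eya* genes encode the co-activators that homeodomain proteins such as SIX4 bring to their targets. None of the 3 passed the test. *Eya1* had a fitted log2 ratio of 0.044 (SE 0.034, adjusted p = 0.537), *Eya2* of 0.064 (SE 0.040, adjusted p = 0.430) and *Eya4* of 0.080 (SE 0.066, adjusted p = 0.561). For *Eya4*, the widest of the 3, the 95% interval of the fold change ran from 0.951 to 1.17, so that the data leave room for small changes in both directions.

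The probe of *Eya1* followed the dye. Its level was 15.62, 14.56, 15.33 and 14.71 in the mutant pools and 14.94, 15.18, 14.66 and 15.27 in the control pools. High and low values alternate with the dye and not with the genotype. Its log2 ratio was 0.683, −0.622, 0.676 and −0.559, with a mean of 0.044 ± 0.734 (SD, n = 4). The dye term, which is the mean log2 ratio of Cy5 over Cy3, was 0.635, and once it was taken out the SD over the arrays was 0.026. The probe lies on chr1:14159982-14160041 (mm9, minus strand), and 34 of its 60 bases form a GT repeat, whose last 30 bases end the probe and are given in capitals.
Eya1 probe, last 30 bases: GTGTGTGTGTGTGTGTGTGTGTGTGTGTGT

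Among the 27963 tested probes the dye term of *Eya1* stood at the 99.98th percentile. All 52 tested probes with a GT run of at least 20 bases had a dye term above 0, with a median of 0.596 and quartiles of 0.549 and 0.613. For the 24 probes with an AC run of that length the median was 0.127, and for all tested probes −0.0051. In the other probes of the 9 genes the longest GT run had 2 to 4 bases. With 2 arrays per dye orientation the dye term cancels from the mean ratio of *Eya1*, but not from the ratio of a single array. Whether this probe, the only one of *Eya1*, reads *Eya1* RNA alone was not tested. Its level and ratio are therefore those of the probe, and an unchanged *Eya1* is not shown by them.

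**Figure D3:**
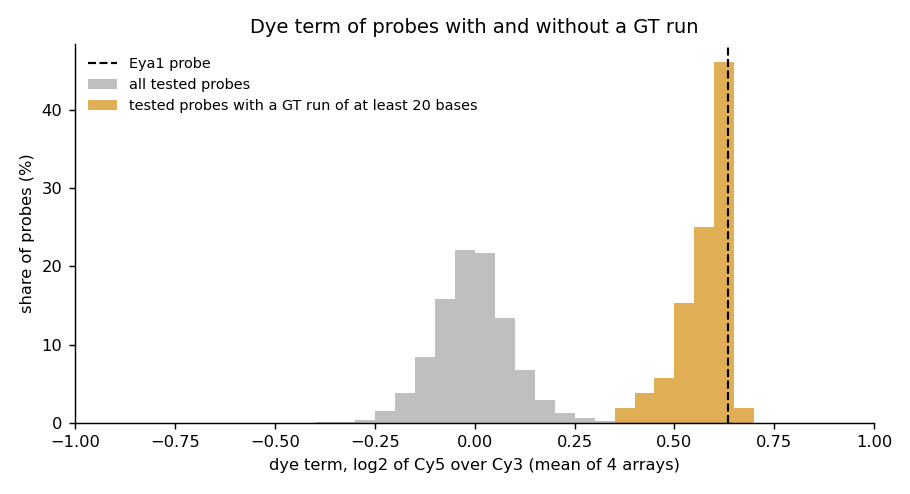
Share of probes in percent (vertical axis) by dye term, the mean log2 ratio of Cy5 over Cy3 on 4 arrays (horizontal axis), for all 27963 tested probes (grey) and the 52 with a GT run of at least 20 bases (orange), with the *Eya1* probe as a dashed line at 0.635. The GT-rich probes lie apart from the bulk, around a median of 0.596, and the *Eya1* probe lies among them.

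*Eya2* was read from chr2:165597072-165597131 (mm9, plus strand). Its level was 13.18, 13.04, 13.14 and 12.95 in mutant pools and 13.19, 13.01, 12.99 and 12.86 in control pools. In both groups the values of arrays 1 and 4 were the highest and the lowest, and the ratio on the 4 arrays was −0.015, 0.032, 0.150 and 0.089. It was 0.023 without array 3 and 0.105 without array 1. *Eya4*, on chr10:22824002-22824061 (minus strand), had 12.79, 12.80, 12.87 and 12.87 in mutant and 12.66, 12.99, 12.74 and 12.62 in control pools. The control pool of array 2 was the highest of all 8, so that the ratio was −0.194 on this array and 0.132, 0.135 and 0.247 on arrays 1, 3 and 4. Without array 2 *Eya4* had a ratio of 0.191 and passed with adjusted p = 0.0498, and without array 4 its ratio was −0.030.

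*Six2* and *Six4* encode homeodomain proteins. *Six2* is best known for keeping progenitors of the kidney undifferentiated, and *Six4* takes part in the development of sense organs and muscle. Both stood well above background in every pool, and neither passed the test. *Six2* was the only one of the 8 genes with a ratio below 0, at −0.079 (SE 0.037, adjusted p = 0.287), and *Six4* had 0.027 (SE 0.066, adjusted p = 0.869).

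*Six2* has 3 probes within the same part of chromosome 17 on the minus strand. The brightest one, chr17:86083634-86083693 (mm9), had levels of 16.22, 16.16, 16.22 and 16.21 in mutant pools and of 16.32, 16.28, 16.19 and 16.32 in control pools. The mutant pool was lower on arrays 1, 2 and 4 and higher on array 3. The second probe, chr17:86083986-86084045, had ratios of 0.050, −0.203, 0.198 and −0.181, which followed the dye, with a dye term of 0.158. The third, chr17:86082307-86082366, which the array design assigns to a cDNA clone, had ratios of −0.176, 0.236, 0.325 and 0.197. The mean ratios of the 3 probes were −0.079 ± 0.068, −0.034 ± 0.192 and 0.146 ± 0.221 (SD, n = 4), with adjusted p = 0.313, 0.705 and 0.335. They thus disagreed in sign, and averaging them turned the ratio of *Six2* to 0.011. Without array 3 the second probe had −0.071, and without array 1 0.0029. The third probe moved more, to 0.271 without array 1 (adjusted p = 0.0540) and to 0.020 without array 3.

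*Six4*, read from chr12:74201246-74201305 (mm9, minus strand), had levels of 12.92, 12.89, 13.02 and 13.16 in mutant and of 12.68, 13.16, 13.00 and 13.04 in control pools. The spread of the control pools (SD 0.206) exceeded the difference of the means, 13.00 and 12.97. Its ratio was 0.242, −0.268, 0.018 and 0.116 on the 4 arrays, and its sign changed under median centring (−0.0044). With single arrays left out the ratio ran from −0.069 without array 4 to 0.123 without array 2.

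*Pax2* and *Pax8* encode the paired-domain factors that act at the start of ear formation, and *Pax2* is later needed for outgrowth of the cochlea. Of the 3 probes of *Pax2*, the brightest and the second were tested, with mean ratios of the same sign, and the third was not tested. The brightest, chr19:44909895-44909954 (mm9, plus strand), had levels of 7.77, 7.72, 7.75 and 7.81 in mutant and of 7.65, 7.77, 7.56 and 7.82 in control pools. The groups overlapped, and the ratio was 0.119 and 0.185 on the arrays with the mutant in Cy5 and −0.049 and −0.0071 on the others. The fitted log2 ratio was 0.062 (SE 0.035, adjusted p = 0.375). The second probe, chr19:44871124-44871183, had a mean ratio of 0.077 ± 0.055 (SD, n = 4) and adjusted p = 0.320 in the fit over probes. Both were well above background in all 8 pools, but their ratios depended on the background correction. With a normexp offset of 10 they were 0.075 and 0.113. With Agilent's processed signals they were 0.115 (adjusted p = 0.227 in the fit over genes) and 0.182 (adjusted p = 0.189 in the fit over probes).

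The third probe of *Pax2*, chr19:44835420-44835479, lies in the coding part of the paired box, which contacts DNA, and is printed to show the sequence it targets.
Pax2 probe 3: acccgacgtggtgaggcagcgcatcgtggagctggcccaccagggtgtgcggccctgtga

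It was not well above background in any of the 8 pools and was not tested, with a mean level of 6.56 in mutant and 6.58 in control pools. The brightest *Pax2* probe is assigned to the same transcript and was well above background in all 8. Whether the third probe works poorly or its target is absent from the RNA was not tested. *Pax8*, on chr2:24276147-24276206 (mm9, minus strand), was well above background in 1 mutant and 0 control pools. Its levels were 6.66, 6.71, 6.70 and 6.75 in mutant and 6.68, 6.77, 6.61 and 6.66 in control pools. The groups overlapped, and without a filter on dim probes the log2 ratio of *Pax8* was 0.026 (SE 0.037, adjusted p = 0.812). As its signal is that of the background, a change of *Pax8* was not detectable here.

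The pools of both sexes were compared next. The log2 ratio of *Gata3* was 0.238 on the female and 0.436 on the male arrays, a female minus male difference of −0.198 (SE 0.083). Among the 8 genes it alone had an unadjusted p below 0.05 for the interaction of genotype and sex, as had 558 of all genes in limma's fit. After adjustment 0 of 21042 genes, 0%, were called, and all 8 genes had adjusted p = 1.00. *Gata2* had 0.133 and 0.185 in females and males (difference −0.052, SE 0.083). *Eya4* had −0.031 and 0.191 (difference −0.222, SE 0.110), and the differences of the remaining 5 genes lay between −0.111 and −0.028. All 8 differences were below 0, with a median of −0.072, over 2 arrays per sex. Over all genes tested 48% were below 0, with a median of 0.0038. The 8 genes are not independent, as they share the same 4 arrays, and none of their differences passed the adjusted test.

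The rest of the families was examined for comparison. Of 15 further genes of the same families 6 were bright enough to be tested. With so few genes a count says little. Beside 2.92% of all genes called lower and 2.26% higher, 0 of the 6 fell and 1 rose. This was *Gata6*, a factor of mesoderm and endoderm, with a log2 ratio of 0.504 ± 0.150 (SD, n = 4) and ratios of 0.729, 0.437, 0.436 and 0.413 on the arrays. Its fold change was 1.42 (SE 0.050 on the log2 scale, adjusted p = 0.00137). Of the 3 *Gata* genes called, the ratio was highest for *Gata6*, followed by *Gata3* and *Gata2*, and the differences between them were not tested. *Gata1* had a ratio of 0.0074 (adjusted p = 0.936) and *Gata5* of 0.016 (adjusted p = 0.853). All 6 ratios were above 0, as were 10873 of all 21042, with a median of 0.025 over the 6. *Pax1*, *Pax4*, *Pax5*, *Pax6*, *Pax7*, *Pax9*, *Six3*, *Six6* and *Gata4* were too dim to be tested.

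**Figure D4:**
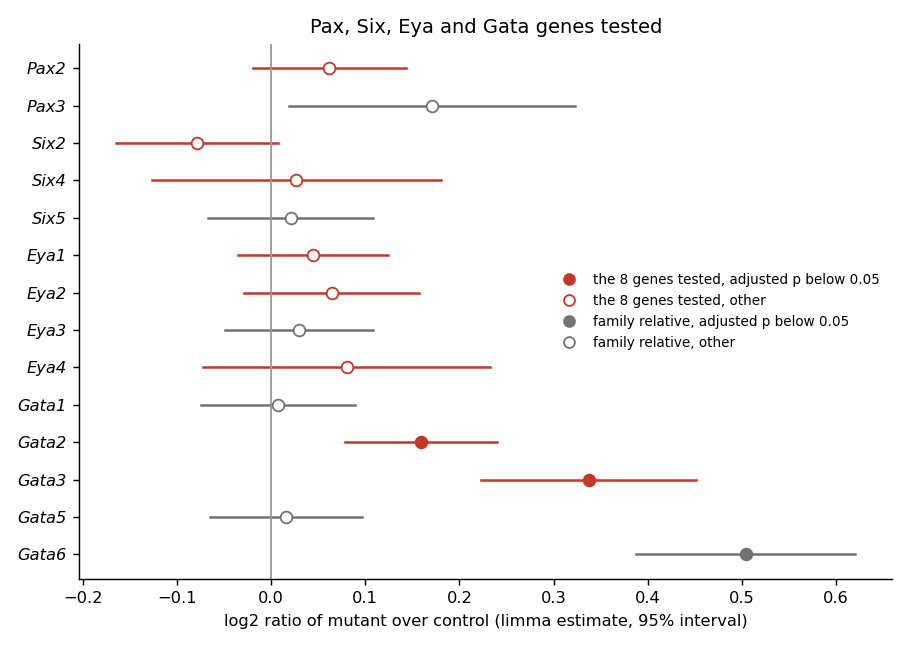
Fitted log2 ratio of mutant over control (horizontal axis) with its 95% interval for the 8 genes tested (red) and 6 family relatives (grey), filled where the adjusted p is below 0.05. *Gata2*, *Gata3* and *Gata6* are filled, at 0.159, 0.337 and 0.504.

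Of 12 genes whose proteins bind members of these families, among them the DACH, FOG and LMO families, 0 were called in either direction by limma. An unadjusted p below 0.05 was found for 2 of the 12, and for 4258 of all 21042 genes. The median log2 ratio of the 12 was 0.020. Of 21 otic genes that act with or downstream of these factors 18 were tested, with 0 higher, 3 lower and a median of 0.018. Over all genes 2.26% were called higher and 2.92% lower, and the list was chosen with earlier results known. The 3 that fell were *Fgf8* (−0.929, adjusted p = 0.000405) and *Fgf10* (−0.467, adjusted p = 0.000308), both fibroblast growth factors, and *Jag1* (−0.194, adjusted p = 0.0278), a Notch ligand. Each was lower on 4 of 4 arrays. The value of *Fgf8* is that of its brightest probe. Another tested *Fgf8* probe had a mean ratio of −0.599, and was well above background in 1 mutant and 4 control pools. A further one, at −0.011, was well above background in 0 mutant and 0 control pools and was not tested. Of the 12 neuronal markers 7 also fell and 2 rose. The part of any neurons in the fall of *Fgf8*, *Fgf10* and *Jag1* was not tested. *Sox2* had a ratio of 0.012 (adjusted p = 0.935).

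Genes with a pattern like that of *Gata3* and *Gata2* were sought over the 8 pools, as Pearson's r with the mean of each dye removed, among 21041 genes. For *Gata3* the highest was *Popdc3* (r = 0.991, log2 ratio 0.245, adjusted p = 0.0343), followed by 2 probes without a gene symbol, A_55_P1957233 and A_55_P2074055 (r = 0.979 for both). For *Gata2* they were *Wdr86* (r = 0.985), *A130042O14Rik* and *A730062M13Rik* (r = 0.979 for both). These values are descriptions, as pools of an array share a hybridisation and genotype contributes to r. Between *Gata2* and *Gata3* r was 0.706, the highest of all pairs among the 8 genes, and the lowest was −0.706, between *Six4* and *Eya2*. Other pairs came close to the highest, with 0.695 for *Eya4* and *Gata2*, 0.693 for *Eya1* and *Eya2* and 0.687 for *Eya2* and *Gata3*.

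**Figure D5:**
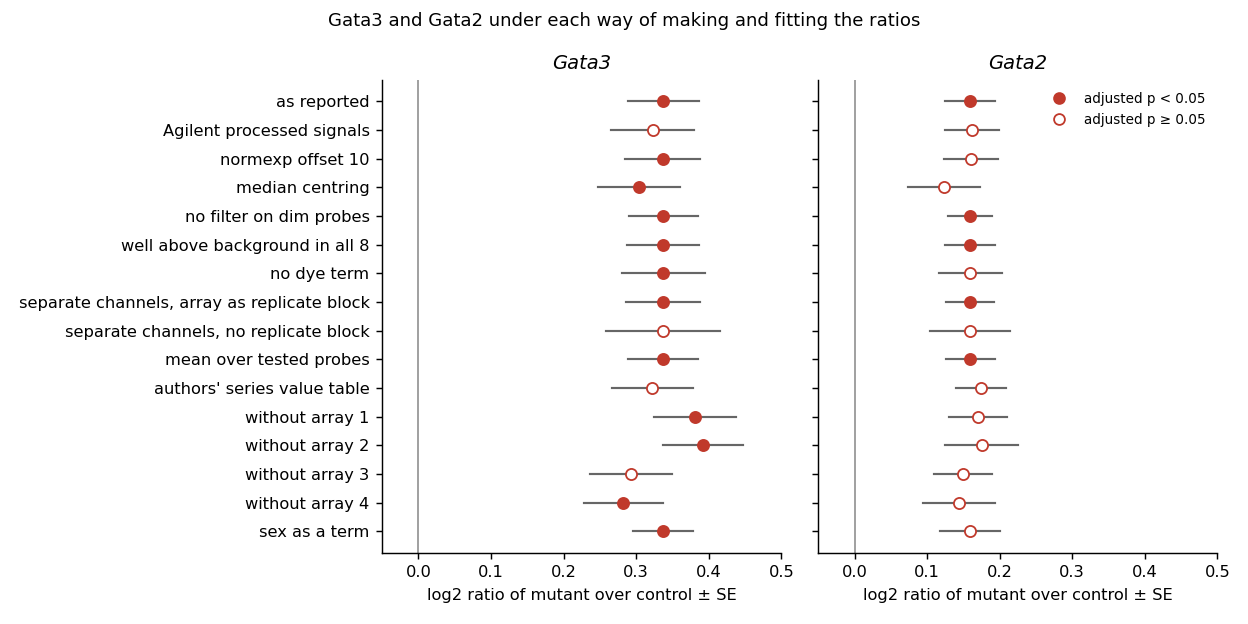
Log2 ratio of mutant over control ± SE (horizontal axes) of *Gata3* (left) and *Gata2* (right) as reported and under 15 other ways of making or fitting the ratios (rows), filled where the adjusted p is below 0.05. All values lie above 0, and 11 of 15 are filled for *Gata3* and 4 of 15 for *Gata2*.

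The direction of both *Gata* changes was the same under all 15 other ways of making and fitting the ratios, but the call was not. *Gata3* passed in 11 and *Gata2* in 4. Treating the 8 pools as unpaired gave an adjusted p of 0.131 for *Gata3* and 0.412 for *Gata2*. The array as a replicate block gave 0.00537 and 0.0241.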

How the data were processed

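Labels and methods gave the groups, sexes and dyes. The authors scanned the arrays and deposited Feature Extraction 10.7.3.1 output, whose intensity values are mean spot brightness and median local background in Cy3 and Cy5, not normalized. The authors' processed intensity is background-subtracted and dye-normalized, and their deposited series table holds a score per probe that matches a signed fold change with the mutant as numerator (r from 0.912 to 0.942 with the log2 ratios computed here over the tested probes). Its normalization is not given in the sources used here. The file headers name a custom design on mm9. The array named in the methods is another, the Whole Mouse Genome Oligo array.

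Background was corrected with normexp (offset 50) and loess was applied to the log2 ratios of each array, without 17263 control spots and without outlier-flagged spots (8.29 to 8.56% of spots). Values of unflagged spots were averaged per probe. A probe had to stand well above background in 4 or more of its 8 channel measurements, which 27963 of 39429 did, and a gene was represented by its brightest such probe. Levels are separate channels after loess and Aquantile. Genes were fitted with limma 3.58.1 in R 4.3.3 (lmFit, eBayes) on genotype direction and a dye intercept, with 2 residual and 5.65 prior degrees of freedom and Benjamini-Hochberg adjustment over all 21042 genes. Mutant and control pools are paired by their array. The permutations of the methods' unpaired SAM test were not run.

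The members and lists were chosen with earlier results of these data known, and some genes of the lists are not reported here. Named by rule were all members and their probes, the called genes of the lists of relatives, binding partners and otic genes (at most 5 each), *Tbx2*, and the 3 genes most like each of the 2 members with the lowest p. *Esr1*, *Sox2*, *Gata1*, *Gata5* and called cell markers were added after their values were seen. Alternatives covered background correction, normalization, filters, the dye term, pairing, probe choice, the series table, each array left out and sex.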

Additional observations from a re-analysis of the deposited data

Results flagged for a closer look

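In 24 sets of 4 values, the log2 ratios of each gene and the levels in each group, the highest or lowest value was set against the rest of its set by Dixon's test at the 95% level, which chance alone passes in about 1 of 20 sets. A total of 2 values stood apart.

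The log2 ratio of *Six2* was 0.023 on array 3, a male array with the mutant in Cy5, whereas the other 3 arrays lay between −0.122 and −0.100 (gap over range 0.853). The level of *Gata2* was 14.31 in the control pool of array 2, a female pool labelled in Cy5, whereas the other 3 control pools lay between 14.17 and 14.19 (gap over range 0.844). This pool is also the one that made the *Gata2* groups overlap, as its level was above that of the mutant pool of array 1. The cause of either value was not tested.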

How the results depend on the processing

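Over 17 alternatives, sexes taken alone included, the ratios of *Gata3* (0.238 to 0.436) and *Gata2* (0.123 to 0.185) stayed above 0, and 0 members were lower at an adjusted p below 0.05 in the 15 with a test. *Gata2* lost its call with Agilent's processed signals (0.162, adjusted p = 0.104), a normexp offset of 10 (0.160, 0.0613), median centring (0.123, 0.190), no dye term (0.159, 0.230), separate channels with no replicate block (0.159, 0.412), the series table (0.174, 0.0992) and sex as a term, chosen after seeing the data (0.159, 0.0591). *Gata3* lost it with processed signals (0.323, 0.0560), no replicate block (0.337, 0.131) and the series table (0.322, 0.0753). Leaving out single arrays gave 0.144 to 0.175 for *Gata2*, and 0.282 to 0.392 for *Gata3*, whose adjusted p ran from 0.00194 to 0.0912. The count of higher members was 0 with processed signals, no replicate block and the series table, 1 with the offset of 10, median centring, no dye term or sex as a term, and 0 to 2 with single arrays left out. Pairing pools with the array as a replicate block gave 0.0241 for *Gata2* and 0.00537 for *Gata3* and changed no call of a member.

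Signs turned for *Six4* under median centring (−0.0044) and without array 1 (−0.029) or 4 (−0.069), for both *Six4* (−0.013) and *Eya4* (−0.031) on the female arrays alone, for *Eya4* without array 4 (−0.030; without array 2 it passed the test at 0.191, adjusted p = 0.0498), for *Six2* as a mean over its probes (0.011), and for the second *Six2* probe without array 1 (0.0029; without array 3 it was −0.071). Over all genes, 1091 calls became 616 with processed signals, 264 with no dye term, 217 with no replicate block, 414 with the series table, and 411, 1278, 445 and 695 without array 1, 2, 3 or 4. The other alternatives gave 939 to 1266. The causes were not tested. The slide as a block was not run, as all 4 arrays were on 1 slide. For *Pax8* and the third *Pax2* probe, signal over background is the limit.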
